A study of Mus musculus with 60 samples.

Results

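The NRF2 antioxidant genes followed here were 10 named mouse genes, Nfe2l2, Nqo1, Hmox1, Osgin1, Gclc, Gclm, Slc7a11, Gsr, Txnrd1 and Srxn1. They were taken by gene symbol as 10 of the 56980 rows of each of 2 gene count tables, and the list was drawn up with earlier results of these data known. All 10 passed the filter on low counts in both tables and are described in every group.

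The reprogramming table covered 12 groups of tail tip fibroblasts by RNA sequencing, each as 3 libraries (36 in all). Here the D/KO fibroblasts carried one truncated and one null Ercc1 allele, which leaves the DNA repair nuclease ERCC1-XPF deficient, together with the doxycycline-inducible 4Fj cassette for Oct4, Klf4, Sox2 and c-Myc in the Col1a1 locus and the ROSA26 transactivator (labelled 4FJ_ERCC1_(d/-), male, 8 weeks). WT fibroblasts carried an inducible cassette of the same 4 factors and an Oct4-GFP reporter (labelled 4FJ_(+/-)_OCT4-GFP, female, 22 weeks), and the methods trace the cassettes of the D/KO and of the WT reporter cells to different founder mice. Both were taken at days 0, 2 and 4 of doxycycline (2 µg/ml), alone or with VC, which is ascorbic acid (50 µg/ml) with the GSK3 inhibitor CHIR (3 µM), and groups at day 0 had no doxycycline. The inhibitor table held 24 libraries without doxycycline: untreated D/KO cells (female, 4 weeks, no 4Fj cassette in the label), the same cells after 3 days of the TGFb type I receptor (ALK5) inhibitors Repsox, Vactosertib (described in the study as acting on ALK2 too) or A83-01 (which also blocks ALK4 and ALK7) or the BMP receptor inhibitor DMH-1, untreated WT cells from tail tip and from skin (female, 14 weeks), and cells of the 22 week 4FJ_(+/-)_OCT4-GFP genotype labelled TGFB. All cells were kept at 3% oxygen. The Ercc1 mutant mice had a C57BL6J and FVB hybrid background. D/KO and WT cells differed in age as well as genotype in both tables, and in sex, reporter and cassette source in the reprogramming table, with 1 labelled sex and age for each, so these cannot be told apart. No source states which libraries came from separate cultures, and the p-values below measure only the spread between these libraries.

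NRF2, the product of Nfe2l2, is a transcription factor that is held low by KEAP1, which presents it for degradation by the proteasome. Oxidants and electrophiles that modify KEAP1 let NRF2 build up, pair with small MAF proteins and bind antioxidant response elements near genes of glutathione synthesis, thioredoxin reduction, quinone detoxification and heme breakdown. NRF2 activity is set mostly at the protein level, so its mRNA is not a measure of it, and several of its targets are also controlled by other factors, such as BACH1 at Hmox1 and ATF4 at Slc7a11.

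Depth was 16538374 to 18484951 counts per library for reprogramming and 17102639 to 30599138 for the inhibitors. Levels are given as CPM, counts divided by the TMM-scaled library total and put on the usual per-megaread scale, and differences as log2 fold changes ± SE from edgeR's quasi-likelihood test, called where the Benjamini-Hochberg adjusted p over all genes tested was under 0.05. No 2 libraries of a group held the same counts, and the library of WT skin numbered 1 stood furthest from its group. Ercc1 ran from 8.04 to 18.6 CPM in D/KO and from 16.9 to 29.1 CPM in WT libraries of the reprogramming table, and from 13.2 to 23.5 and from 13.3 to 47.8 CPM in the inhibitor table. The Ercc1 row counts reads from the whole gene and does not separate a truncated allele from an intact one. Each of 10 fibroblast markers was detected in every group. The endothelial markers Pecam1, Cdh5, Kdr, Tie1 and Vwf summed to 637 to 693 CPM in D/KO cells at day 0 but to 1.0 to 1.4 CPM in WT cells at day 0, and a level in these bulk samples cannot separate fewer cells of a type from less RNA per cell.

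The counts cover the exons of each gene on GRCm39. The files place Nfe2l2 at chr2:75505857-75534985 (minus strand), Nqo1 at chr8:108114857-108129838 (minus strand), Hmox1 at chr8:75820249-75827217 (plus strand) and Osgin1 at chr8:120160863-120172995 (plus strand). The glutathione genes lie apart, Gclc at chr9:77661817-77701767 (plus strand), Gclm at chr3:122039206-122064381 (plus strand), Slc7a11 at chr3:49846975-50398063 (minus strand) and Gsr at chr8:34142551-34188191 (plus strand). The thioredoxin genes are Txnrd1 at chr10:82669785-82733546 (plus strand) and Srxn1 at chr2:151947436-151953296 (plus strand), and Srxn1 shares 242 exon bases with an antisense transcript, 9230118N01Rik.

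The promoter windows of 7 of the 10 genes were in the RefSeq table used here (build GRCm38.p6, 250 bases before to 50 after a start site), with no entry for Hmox1, Gclc and Gsr. The core of the antioxidant response element, searched as TGACNNNGC on both strands, was found in a window of 4 of these 7 genes, Nfe2l2, Gclm, Txnrd1 and Srxn1, and in 12.4% of all 32851 windows (14.0% of 27025 genes). The match of Srxn1 lay 28 bases after its start. The 3 matches upstream of a start are shown on the strand of the gene, because they are the sites where the letters of the element and the measured genes meet, with the match in capitals. That of Nfe2l2 started 240 bases before the start (chr2:75704870-75704913, minus strand), that of Gclm 134 bases before (chr3:122245398-122245456, plus strand) and that of Txnrd1 92 bases before 1 of its 3 starts (chr10:82859089-82859147, plus strand), and the matches of Gclm and Txnrd1 are reversed because the element lies on the other strand.
Nfe2l2: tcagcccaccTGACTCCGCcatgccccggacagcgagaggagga
Gclm: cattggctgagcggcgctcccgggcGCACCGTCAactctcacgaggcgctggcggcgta
Txnrd1: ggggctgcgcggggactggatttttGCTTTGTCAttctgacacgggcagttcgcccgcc
The related AP-1 letters TGANTCA, which share their first 3 bases with the element, were found in windows of 2 of the 7 genes, Srxn1 and Osgin1, and in 7.81% of all windows. No match was found for Nqo1, Osgin1 or Slc7a11 with the element's core, which says only that these letters are not in these windows.

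Per exon length, the genes differed widely in level. In D/KO cells at day 0 Hmox1 stood at 130.3 ± 13 RPKM (mean ± SD, n = 3), Nfe2l2 at 33.4 ± 1.7, Txnrd1 at 23.1 ± 5.3 and Srxn1 at 22.8 ± 3.2 RPKM. Gsr followed at 13.1 ± 0.82, Gclm at 9.44 ± 0.95, Nqo1 at 5.54 ± 1.3 and Gclc at 4.67 ± 1.3 RPKM, and Osgin1 (1.74 ± 0.38) and Slc7a11 (1.48 ± 0.058) were lowest. By day 4 with VC, Nqo1 had reached 49.6 ± 14 RPKM, close to the 55.2 ± 2.8 RPKM of Nfe2l2.

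The 10 genes did not move as one group during reprogramming. In D/KO cells 4 rose and 3 fell by day 2 (of all genes tested, 14.3% higher, 13.2% lower and 27.4% in either direction) and 4 rose and 3 fell by day 4 (18.3% higher, 18.7% lower, 37.0% in all). Against day 0 with VC, 5 rose and 4 fell by day 2 with VC (23.8% higher, 23.6% lower, 47.4% in all) and 5 rose and 2 fell by day 4 with VC (27.9% higher, 26.2% lower, 54.1% in all). In WT cells 2 rose and none fell by day 2 (6.26% higher, 4.30% lower, 10.6% in all), and 1 rose and 3 fell by day 4 (11.7% higher, 12.8% lower, 24.5% in all). With VC, 4 rose and 1 fell by day 2 (13.8% higher, 13.7% lower, 27.5% in all) and 4 rose and 2 fell by day 4 (22.7% higher, 22.0% lower, 44.7% in all). With only the groups compared in the fit, 7 of the 10 genes were called at WT day 4 and 3 at WT day 2 with VC. The shares of all genes above belong to the fit of all groups. More of all genes were also called at WT day 4 in the smaller fit, so the higher count was not particular to the 10 genes. For WT day 2 with VC no share of all genes in the smaller fit is given. Both days share the same day 0 libraries. The median log2 fold change of the 10 genes lay between 0.05 and 0.25 in these 8 comparisons, beside medians of all genes between -0.01 and 0.03.

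**Figure D1:**
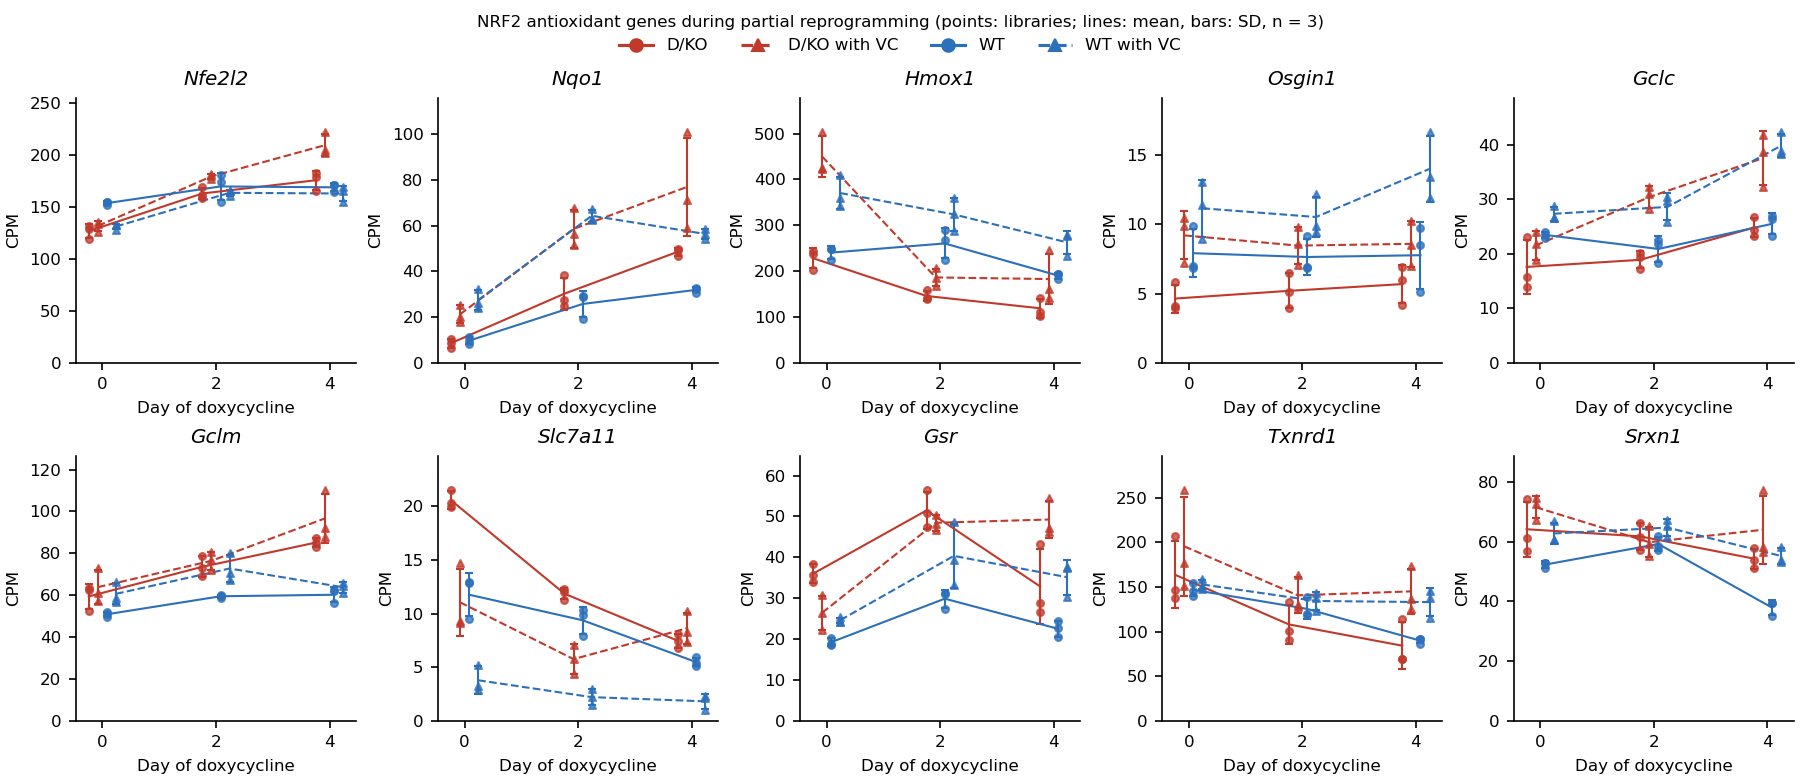
Level of each gene (CPM, linear axis from 0) by day of doxycycline in the 12 groups of the reprogramming table. Points are single libraries, lines join group means and bars are SD (n = 3). Nqo1 rose in every arm, Hmox1 fell in both D/KO arms from day 0 of the same arm, and Slc7a11 was lowest in WT cells with VC.

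Nfe2l2, which encodes NRF2 itself, rose modestly in D/KO cells. Its libraries held 119, 132 and 129 CPM at day 0, 169, 161 and 159 CPM at day 2 and 179, 166 and 183 CPM at day 4, and the ranges of days 2 and 4 did not overlap that of day 0. The log2 fold changes were 0.36 ± 0.07, adjusted p = 2.08e-04, and 0.47 ± 0.07, adjusted p = 2.28e-06. With VC the level ran from 132 ± 4.8 CPM (mean ± SD, n = 3) at day 0 to 209 ± 11 CPM at day 4, the highest of the 12 groups (log2 0.67 ± 0.07, adjusted p = 1.04e-09), with 0.45 ± 0.07 by day 2. WT cells started higher, with 152, 155 and 154 CPM at day 0, and held 171, 171 and 165 CPM at day 4. This did not pass the test, although the range of day 4 lay above that of day 0. With VC, WT cells rose by 0.32 ± 0.07 by day 2 and 0.31 ± 0.07 by day 4 on the log2 scale, from a day 0 level that VC had lowered to 131 ± 2.7 CPM (log2 -0.23 ± 0.07, adjusted p = 0.0169). Against WT day 0 without VC the rises were 0.09 and 0.08 and were not called, while those of D/KO cells against D/KO day 0 without VC were 0.50 and 0.72 and were. The call of the VC effect was lost without library 2 of WT day 0 (log2 -0.22) or library 3 of WT day 0 with VC (log2 -0.21). The exons of Nfe2l2 share 278 bases with an antisense transcript, E030042O20Rik, whose row held 310 counts over the inhibitor table.

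Nqo1, the quinone reductase often used as a readout of NRF2, had the largest rise of the 10 genes in each of the 8 comparisons with day 0. It went in D/KO cells from 6.64, 8.56 and 10.6 CPM at day 0 to 25.1, 27.5 and 38.3 CPM at day 2 and 46.7, 49.3 and 49.9 CPM at day 4, with no overlap between the days. These were log2 fold changes of 1.81 ± 0.19, adjusted p = 1.40e-09, and 2.49 ± 0.19, adjusted p = 2.60e-13. In WT cells the libraries held 8.34, 11.2 and 9.65 CPM at day 0, 28.9, 29.1 and 19.3 CPM at day 2 and 32.5, 32.7 and 30.6 CPM at day 4 (log2 1.41 ± 0.19, adjusted p = 9.38e-07, and 1.72 ± 0.19, adjusted p = 4.97e-09). Every library at days 2 and 4 was above every library at day 0 of the same line.

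VC alone also raised Nqo1. At day 0 it stood at 17.998, 25.5 and 20.2 CPM in D/KO cells with VC and at 32.2, 23.9 and 26.4 CPM in WT cells with VC, all above the libraries without VC. The effect of VC was 1.30 ± 0.19, adjusted p = 2.10e-06, in D/KO cells and 1.497 ± 0.19, adjusted p = 8.40e-08, in WT cells at day 0 on the log2 scale, and 0.95 ± 0.17 and 1.32 ± 0.17 at day 2. From these higher starts Nqo1 rose further with doxycycline, by 1.47 ± 0.18 and 1.86 ± 0.18 in D/KO cells and by 1.23 ± 0.17 and 1.04 ± 0.17 in WT cells by days 2 and 4. Measured from day 0 without VC, the D/KO rises were 2.76 and 3.16 and those of WT cells 2.73 and 2.53, all called. Its level at day 4 with VC was 58.8, 71.4 and 101 CPM in D/KO cells, where library 3 was far above the others, and 54.3, 56.2 and 58.6 CPM in WT cells. The VC effect at day 4 was 0.82 ± 0.17 in WT cells and 0.66 ± 0.17, adjusted p = 0.00221, in D/KO cells, and the latter was lost without library 3 of D/KO day 4 with VC (log2 0.42).

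Hmox1, which encodes the heme-degrading enzyme heme oxygenase 1, moved against Nqo1 in D/KO cells. It fell from 203, 244 and 237 CPM at day 0 to 141, 138 and 158 CPM at day 2 and 103, 112 and 142 CPM at day 4 (log2 -0.65 ± 0.14, adjusted p = 5.49e-04, and -0.94 ± 0.14, adjusted p = 1.40e-06), and the ranges of both days lay under that of day 0. VC raised it at day 0 to 424, 423 and 502 CPM, the highest group of the table (log2 0.98 ± 0.14, adjusted p = 1.29e-06), and it fell from there at day 2 (log2 -1.27 ± 0.14, adjusted p = 2.57e-09) and at day 4 (log2 -1.30 ± 0.14, adjusted p = 1.03e-09). Both D/KO falls turned on their baseline, since against D/KO day 0 without VC they were -0.29 and -0.32 and were not called. WT cells held 225, 249 and 248 CPM at day 0, 268, 289 and 225 CPM at day 2 and 193, 194 and 183 CPM at day 4, and neither day passed the test, although the range of day 4 lay under that of day 0 (log2 -0.34 ± 0.14, adjusted p = 0.0764). In WT cells VC raised it at day 0 to 409, 343 and 359 CPM (log2 0.62 ± 0.14, adjusted p = 8.11e-04), and it fell from there by day 4 to 234, 276 and 278 CPM (log2 -0.50 ± 0.14, adjusted p = 0.00429). That fall turned on its baseline, since against WT day 0 without VC the same day 4 libraries were 0.13 higher on the log2 scale. At day 4 Hmox1 was higher with VC than without in D/KO cells (log2 0.62 ± 0.14, and 0.35 and still called without library 3 of D/KO day 4 with VC) and in WT cells (log2 0.47 ± 0.14), and the WT call was lost without library 3 of WT day 4 (log2 0.44) or without library 2 or 3 of WT day 4 with VC (log2 0.43 and 0.42).

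Gclc and Gclm encode the catalytic and the modifier subunit of glutamate-cysteine ligase, the rate-limiting enzyme of glutathione synthesis. Gclm rose in D/KO cells from 52.5, 62.3 and 63.3 CPM at day 0 to 87.4, 83.2 and 84.8 CPM at day 4 (log2 0.52 ± 0.10, adjusted p = 4.43e-05) and with VC from 57.4, 61.1 and 73.0 to 87.7, 92.3 and 110.0 CPM (log2 0.60 ± 0.10, adjusted p = 2.71e-06), without overlap in either arm. The smaller day 2 rises of Gclm, 0.31 ± 0.10 in D/KO cells, 0.26 ± 0.10 with VC and 0.26 ± 0.10 in WT cells with VC, lost their call in 2, 4 and 4 of the 6 fits that left out 1 library, with values down to 0.23, 0.19 and 0.19. Without library 1 of D/KO day 0 or library 3 of D/KO day 2 the first was 0.23 and 0.26. The libraries whose absence ended the second were 1 and 2 of D/KO day 0 with VC and 2 and 3 of D/KO day 2 with VC, and for the third 1 and 3 of both WT groups with VC. Gclm was also called higher with VC in WT cells at day 0 (0.25 ± 0.10) and day 2 (0.29 ± 0.10), and these calls were lost in 5 of 6 and 3 of 6 such fits (down to 0.18 and 0.22). The first was kept only in the fit without library 1 of WT day 0 with VC, and the second was lost without library 1 or 3 of WT day 2 or library 1 of WT day 2 with VC. Against day 0 without VC the WT day 2 rise with VC was 0.52 and called. WT cells without VC held 49.8 to 51.7 CPM of Gclm at day 0, 58.7 to 60.2 CPM at day 2 and 56.1 to 62.7 CPM at day 4. Both later ranges lay above that of day 0, and neither day was called. Exons of Gclm overlap the antisense transcript Gm17494 over 869 bases.

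Gclc rose with VC by days 2 and 4 in D/KO cells and by day 4 in WT cells. D/KO libraries with VC held 24.02, 18.8 and 21.8 CPM at day 0, 28.1, 30.9 and 32.2 CPM at day 2 and 38.6, 32.2 and 41.8 CPM at day 4 (log2 0.50 ± 0.13, adjusted p = 0.00252, and 0.80 ± 0.13, adjusted p = 4.15e-06), and every library at days 2 and 4 was above those at day 0. Against D/KO day 0 without VC these were 0.79 and 1.09, both called. WT libraries with VC went from 28.8, 26.6 and 26.6 CPM at day 0 to 42.2, 38.2 and 38.9 CPM at day 4 (log2 0.54 ± 0.13, adjusted p = 9.99e-04). By day 2 WT cells with VC, at 25.8 to 30.4 CPM, overlapped their day 0 and were not called (log2 0.07 ± 0.13, adjusted p = 0.773). Without VC the day 0 libraries of D/KO cells were spread, at 15.8, 13.8 and 23.2 CPM, and the rise to 23.3, 24.4 and 26.7 CPM at day 4 (log2 0.49 ± 0.14, adjusted p = 0.00354) was lost without library 2 of D/KO day 0 (log2 0.35) and was 0.74 without library 3 of that group. At days 2 and 4 Gclc was higher with VC than without, by 0.69 ± 0.13 and 0.60 ± 0.13 in D/KO cells and by 0.45 ± 0.13 and 0.64 ± 0.13 in WT cells, and only the WT day 2 call was lost by leaving out 1 library, number 2 of WT day 2 (log2 0.37).

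Slc7a11 encodes the cystine importer of system xc-, which brings in the cysteine for glutathione. It fell without VC in both lines. D/KO libraries held 21.5, 20.3 and 19.9 CPM at day 0, 12.02, 11.3 and 12.3 CPM at day 2 and 8.09, 7.47 and 6.80 CPM at day 4, in 3 separate ranges (log2 -0.79 ± 0.21, adjusted p = 0.00432, and -1.46 ± 0.22, adjusted p = 1.05e-06). WT cells went from 9.45, 12.9 and 12.9 CPM to 5.37, 5.14 and 5.91 CPM by day 4 (log2 -1.10 ± 0.22, adjusted p = 3.06e-04). VC lowered Slc7a11 at day 0, to 9.13, 9.34 and 14.7 CPM in D/KO cells (log2 -0.90 ± 0.22, adjusted p = 0.0017) and to 2.84, 3.26 and 5.24 CPM in WT cells (log2 -1.64 ± 0.24, adjusted p = 1.25e-06).

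The lowest Slc7a11 group was WT day 4 with VC, at 1.05, 2.08 and 2.31 CPM, -1.58 ± 0.26 on the log2 scale against day 4 without VC. At day 2 the VC effect was -2.09 ± 0.25, adjusted p = 6.61e-08, in WT cells and -1.04 ± 0.23, adjusted p = 5.70e-04, in D/KO cells. In D/KO cells at day 4 the libraries with VC, at 10.2, 8.30 and 7.37 CPM, overlapped those without, and the VC effect did not pass the test. Against day 0 with VC, Slc7a11 was lower by day 2 in D/KO cells (log2 -0.94 ± 0.23) and by days 2 and 4 in WT cells (log2 -0.78 ± 0.27 and -1.04 ± 0.27). Against day 0 without VC these 3 were -1.84, -2.42 and -2.68, all called. The WT day 2 call was lost without library 3 of WT day 0 with VC (log2 -0.47) or without library 2 or 3 of WT day 2 with VC (log2 -0.53 and -0.80).

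Gsr, glutathione reductase, regenerates reduced glutathione. It rose by day 2 in all 4 arms, from 38.4, 34.0 and 35.6 CPM to 47.3, 50.8 and 56.4 CPM in D/KO cells (log2 0.52 ± 0.14, adjusted p = 0.00463) and from 18.6, 18.9 and 20.3 to 31.1, 31.2 and 27.3 CPM in WT cells (log2 0.63 ± 0.14, adjusted p = 0.00234), by 0.87 ± 0.14 in D/KO cells with VC and by 0.71 ± 0.14 in WT cells with VC. By day 4 it was called against day 0 with VC but not without: 46.1, 47.1 and 54.6 CPM in D/KO cells with VC (log2 0.90 ± 0.14, adjusted p = 1.73e-06) beside 28.8, 26.5 and 43.3 CPM without, where library 3 was well above the other 2, and 30.2, 37.7 and 37.4 CPM in WT cells with VC (log2 0.51 ± 0.14, adjusted p = 0.00364) beside 24.4, 22.6 and 20.5 CPM without. Against day 0 without VC the rises with VC were 0.43 and 0.45 in D/KO and 1.07 and 0.87 in WT cells by days 2 and 4, all called. VC raised Gsr at day 4 in both lines (log2 0.58 ± 0.14 and 0.64 ± 0.14). At day 0 VC lowered it in D/KO cells (log2 -0.44 ± 0.14, adjusted p = 0.0191), a call lost without library 1 of D/KO day 0 (log2 -0.39) or library 1 or 2 of D/KO day 0 with VC (log2 -0.44 and -0.34), and the WT day 2 effect of VC (0.43 ± 0.14) was lost without library 3 of WT day 2 (log2 0.37) or library 2 of WT day 2 with VC (log2 0.28).

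Txnrd1 encodes cytosolic thioredoxin reductase 1, and Srxn1 encodes sulfiredoxin, which repairs overoxidised peroxiredoxins. Txnrd1 fell without VC, from 147, 137 and 207 CPM at day 0 to 69.3, 69.0 and 114 CPM at day 4 in D/KO cells (log2 -0.96 ± 0.18, adjusted p = 3.27e-05) and from 155, 140.0 and 146 to 91.5, 91.4 and 86.5 CPM in WT cells (log2 -0.71 ± 0.18, adjusted p = 0.00264). In each of the 6 D/KO groups the library listed last had the highest Txnrd1 and the highest Srxn1, which held for Txnrd1 in 1 and for Srxn1 in 3 of the 6 WT groups. That library was also highest in 5 of the 6 D/KO groups for Nqo1, Hmox1, Gclc and Gclm (1 of 6 WT groups for each) and in 4 for Gsr and Nfe2l2 (1 and 0 of the WT groups), but in 3 for Slc7a11 and 1 for Osgin1 (3 and 1). The smaller D/KO falls of Txnrd1 turned on single libraries: -0.60 ± 0.18 by day 2 was -0.39 without library 3 of D/KO day 0 and -0.49 without library 2 of D/KO day 2. With VC, -0.48 ± 0.17 by day 2 was -0.22 and -0.43 ± 0.17 by day 4 was -0.18 without library 3 of D/KO day 0 with VC, and both were also lost without library 1 or 2 of the later day (-0.40 and -0.42 at day 2, -0.38 and -0.33 at day 4). Against D/KO day 0 without VC the falls with VC were -0.22 and -0.17 and were not called.

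With the last-listed library left out of all 6 D/KO groups together, an alternative chosen after seeing the data, the Txnrd1 falls were -0.57, -1.04, -0.35 and -0.33 in the same order of day 2, day 4, day 2 with VC and day 4 with VC, and all 4 were called. At day 4 Txnrd1 was higher with VC than without, at 136, 126 and 174 CPM in D/KO cells (log2 0.79 ± 0.18, adjusted p = 5.78e-04) and 116, 138 and 145 CPM in WT cells (log2 0.57 ± 0.18, adjusted p = 0.0162). The WT call was lost without library 3 of WT day 4 (log2 0.54) or without library 2 or 3 of WT day 4 with VC (log2 0.54 and 0.50).

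**Figure D2:**
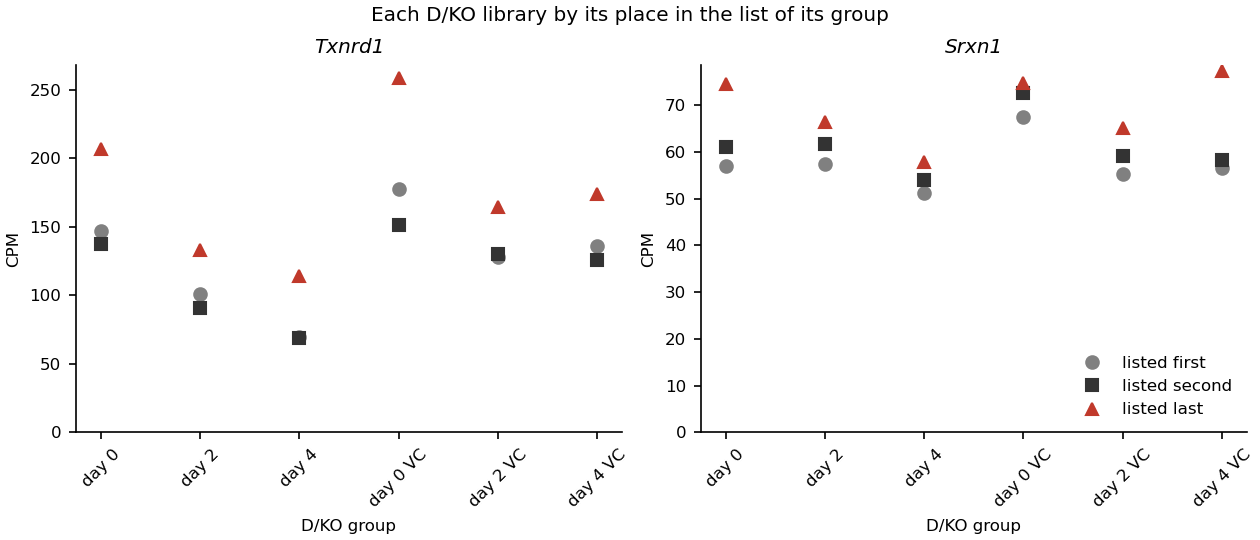
Txnrd1 and Srxn1 (CPM, linear axis from 0) in each D/KO library of the reprogramming table, by its place in the list of its group. In all 6 groups the library listed last is the highest for both genes. The place in the list is a name and no source ties libraries of different groups together.

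Srxn1 moved less. It fell by day 4 in WT cells from 52.9, 51.1 and 53.0 CPM to 39.4, 35.0 and 39.4 CPM (log2 -0.46 ± 0.10, adjusted p = 9.87e-04), and it was higher at that day with VC, at 54.0, 53.4 and 58.4 CPM (log2 0.54 ± 0.10, adjusted p = 1.50e-04). D/KO cells held 57.0, 61.1 and 74.5 CPM at day 0 and 51.2, 53.9 and 57.9 CPM at day 4, with overlapping ranges and no call. Its fall by day 2 with VC in D/KO cells turned on its baseline, at -0.10 and not called against D/KO day 0 without VC. That fall (log2 -0.26 ± 0.10, adjusted p = 0.0391) was lost without library 2 or 3 of D/KO day 0 with VC (log2 -0.25 and -0.23) or library 1 or 2 of D/KO day 2 with VC (log2 -0.19 and -0.25).

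Osgin1, an oxidative stress-induced regulator of cell growth, was not called against day 0 in any of the 8 comparisons, but it was called between VC and no VC in 4 of 6. At day 0 VC raised it in D/KO cells from 4.00, 5.81 and 4.13 CPM to 9.91, 10.47 and 7.23 CPM (log2 0.98 ± 0.24, adjusted p = 0.00218). WT cells at day 4 held 9.72, 5.09 and 8.50 CPM without and 11.9, 16.6 and 13.4 CPM with VC (log2 0.85 ± 0.23, adjusted p = 0.00484), a call lost without library 2 of WT day 4 (log2 0.62). In D/KO cells the VC effects at day 2 (0.70 ± 0.24) and day 4 (0.59 ± 0.23) were each lost in 4 of 6 fits without 1 library, down to 0.54 and 0.42. Those libraries were 1 and 3 of D/KO day 2 and 1 and 2 of D/KO day 2 with VC, and 2 and 3 of D/KO day 4 with and without VC. Without the last-listed library of all D/KO groups these 2 effects were 0.66 and 0.27 and were not called.

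Across the VC comparisons, 3 of the 10 genes rose and 2 fell with VC at day 0 in D/KO cells (12.1% higher, 14.0% lower, 26.1% in all), 3 rose and 1 fell at day 2 (11.1% higher, 14.2% lower, 25.3% in all) and 7 rose and none fell at day 4 (16.8% higher, 17.7% lower, 34.5% in all). In WT cells 3 rose and 2 fell at day 0 (15.1% higher, 14.4% lower, 29.4% in all), 4 rose and 1 fell at day 2 (13.5% of all genes higher, 2066 genes lower, 26.6% in all) and 7 rose and 1 fell at day 4 (1897 genes higher, 10.4% lower, 22.4% in all). At day 4 the median log2 VC effect of the 10 genes was 0.59 in D/KO and 0.55 in WT cells, against 0.01 and 0.03 over all genes. Slc7a11 was the gene that fell at every day in WT cells.

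**Figure D3:**
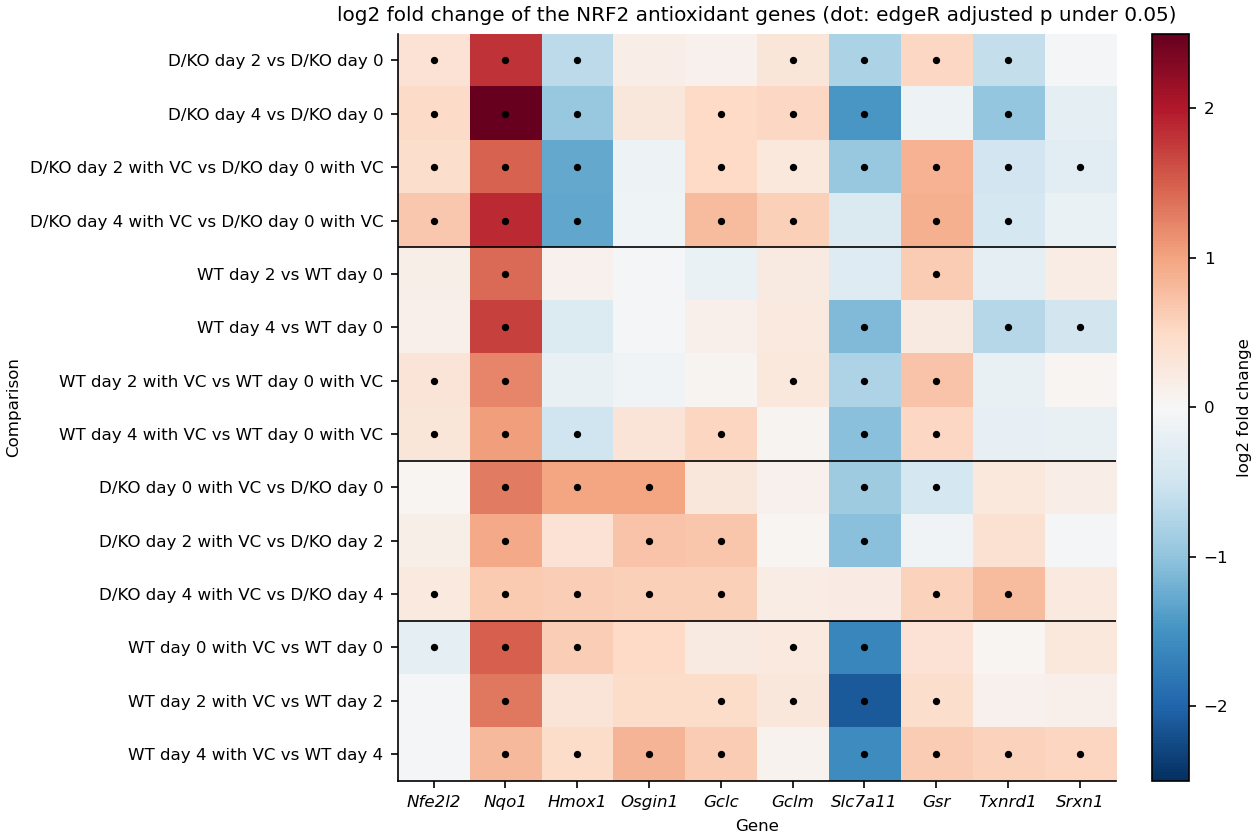
log2 fold changes (colour) of the 10 genes (columns) in 8 comparisons with day 0 and 6 comparisons of VC with no VC (rows). Dots mark an edgeR adjusted p under 0.05. Nqo1 is higher and called in all 14 comparisons, and Slc7a11 is lower in 13, of which 11 are called.

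Among 24 other NRF2 targets, 12 rose and 3 fell by day 4 in D/KO cells, with a median log2 fold change of 0.35, and 6 rose and 4 fell in WT cells (median 0.08). Over all genes 18.3% were higher and 18.7% lower in D/KO and 11.7% and 12.8% in WT cells. With VC the counts were 11 and 4 in D/KO cells (median 0.24) and 5 and 7 in WT cells (median 0.01), beside 27.9% higher and 26.2% lower and 22.7% and 22.0% of all genes. At day 4 in D/KO cells Gsta4, a glutathione transferase, rose by 2.94 ± 0.16, adjusted p = 5.12e-17, Aox1, an aldehyde oxidase, by 1.62 ± 0.13 and Me1, the NADPH-making malic enzyme, by 1.00 ± 0.10 on the log2 scale, while Abcc1, an exporter of glutathione conjugates, fell (log2 -0.82 ± 0.10). VC at day 0 raised 16 and lowered 1 of the 24 in WT cells (median 0.43) and raised 9 and lowered 1 in D/KO cells (median 0.30), where 15.1% and 14.4%, and 12.1% and 14.0%, of all genes were higher and lower. Among those raised were Aox1 (log2 1.01 ± 0.13 and 1.88 ± 0.13), the glutathione transferase Gstm2 (0.81 ± 0.13 and 0.95 ± 0.13) and the microsomal transferase Mgst1 (0.78 ± 0.14 and 0.80 ± 0.15).

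Of 12 regulators of NRF2, 1 rose and 2 fell by day 4 in D/KO cells and 1 rose and 1 fell in WT cells, beside 37.0% and 24.5% of all genes called in either direction. Against day 0 with VC, 2 rose and 5 fell by day 4 with VC in D/KO cells and 3 rose and 2 fell in WT cells, beside 54.1% and 44.7% of all genes. Mafk, a small MAF partner, rose in both (log2 0.68 ± 0.10 and 0.58 ± 0.10), and Mafg, another partner, fell in D/KO cells (-0.67 ± 0.10). Keap1, the repressor, fell by day 4 with VC in D/KO cells (-0.51 ± 0.11, adjusted p = 2.38e-04) and in WT cells (-0.41 ± 0.11, adjusted p = 0.0028). VC at day 0 raised none and lowered 2 of the 12 in D/KO cells and raised 3 and lowered 4 in WT cells, beside 26.1% and 29.4% of all genes called. It lowered Nfe2l1, which encodes the related factor NRF1, in both lines (-0.80 ± 0.08 and -0.87 ± 0.08), and in WT cells it raised Bach1, a repressor of Hmox1 (0.67 ± 0.13).

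All 9 of a list of ATF4 and its targets fell by day 4 in D/KO cells (median log2 fold change -1.18) and in WT cells (median -0.92), beside 18.7% and 12.8% of all genes. Among them were Psat1, of serine synthesis (-2.12 ± 0.15 in D/KO and -1.76 ± 0.15 in WT cells), Trib3 (-2.94 ± 0.27 and -2.36 ± 0.26) and Asns, asparagine synthetase (-1.18 ± 0.12 and -0.77 ± 0.12). VC at day 0 raised none of the 9 and lowered 5 in D/KO cells and 7 in WT cells (14.0% and 14.4% of all genes), and Slc7a11 fell in the same comparisons. A link between Slc7a11 and this list was not tested. Against day 0 with VC, 2 of the 9 rose and 6 fell by day 4 with VC in D/KO cells and none rose and 7 fell in WT cells. VC at day 4 raised 3 and lowered 2 in D/KO cells (median 0.20) and raised none and lowered 5 in WT cells (median -0.80). Of all genes it raised 16.8% and lowered 17.7% in D/KO cells, and it raised 1897 genes and lowered 10.4% in WT cells. Of 17 antioxidant enzymes outside these lists, 3 rose and 4 fell by day 4 in D/KO cells and 1 rose and 5 fell in WT cells (37.0% and 24.5% of all genes in either direction), with Cat, catalase, at 1.03 ± 0.09 in D/KO cells.

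The D/KO and WT changes were compared by the interaction of line and day. The shares of all genes called, higher or lower in D/KO cells, stand in brackets. It was called for 1 of the 10 genes at day 2 (3.43% higher, 3.11% lower, 6.54% in all), 3 at day 4 (7.27% higher, 7.04% lower, 14.3% in all), 1 at day 2 with VC (6.86% higher, 1109 genes lower, 13.9% in all) and 4 at day 4 with VC (13.9% higher, 15.5% lower, 29.4% in all). The change of Hmox1 was lower in D/KO cells in all 4, with a log2 difference of -0.76 ± 0.20, adjusted p = 0.0145, at day 2, -0.60 ± 0.20 at day 4, -1.08 ± 0.20, adjusted p = 1.86e-04, at day 2 with VC and -0.80 ± 0.20, adjusted p = 0.00221, at day 4 with VC. Nqo1 rose further in D/KO cells by day 4, by 0.78 ± 0.26, adjusted p = 0.0411, and 0.82 ± 0.25, adjusted p = 0.0107, with VC, and Nfe2l2 by 0.33 ± 0.10 and 0.36 ± 0.10, adjusted p = 0.00858, with VC. Gclm differed at day 4 with VC (0.53 ± 0.14, adjusted p = 0.00371), where it had risen in D/KO cells and held 61.0, 66.0 and 64.3 CPM in WT cells against 56.8, 66.2 and 58.9 CPM at day 0 with VC.

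At day 4 without VC each of the 3 interactions turned on single libraries. Leaving out 1 library at a time, that of Nqo1 was lost in 10 of 12 fits (0.63 to 0.96) and kept only without library 3 of D/KO day 0 or library 1 of WT day 0. That of Hmox1 was lost in 10 of 12 (-0.75 to -0.51) and kept only without library 1 of D/KO day 0 or library 3 of D/KO day 4. That of Nfe2l2 was lost in 6 of 12 (0.30 to 0.37), without library 1 of D/KO day 0, 1 or 3 of D/KO day 4, 2 or 3 of WT day 0 or 3 of WT day 4. The Nqo1 interaction with VC was lost only without library 3 of D/KO day 4 with VC (0.58). The other 5 interactions, those of Hmox1 at day 2 and of Hmox1, Nfe2l2 and Gclm with VC, kept their call whichever library was left out. Those with VC moved with the baseline. With day 0 without VC in both lines, Hmox1 was -0.72 at day 2 with VC and still called, and at day 4 with VC -0.45 (edgeR adjusted p = 0.111) and not called. There Nqo1 was 0.62 (edgeR adjusted p = 0.0869) and not called, and Nfe2l2 at 0.64 and Gclm at 0.38 (edgeR adjusted p = 0.0482) were called. At day 2 with VC, 4 of the 10 genes in place of 1 were called with this baseline. The share of all genes given above for day 2 with VC belongs to the baseline of day 0 with VC. No share of all genes is given for the other baseline, so the 4 cannot be set against all genes. Without the last-listed library of all D/KO groups, the Nfe2l2 interaction at day 4 (0.32) and the Nqo1 interaction at day 4 with VC (0.55) were not called.

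**Figure D4:**
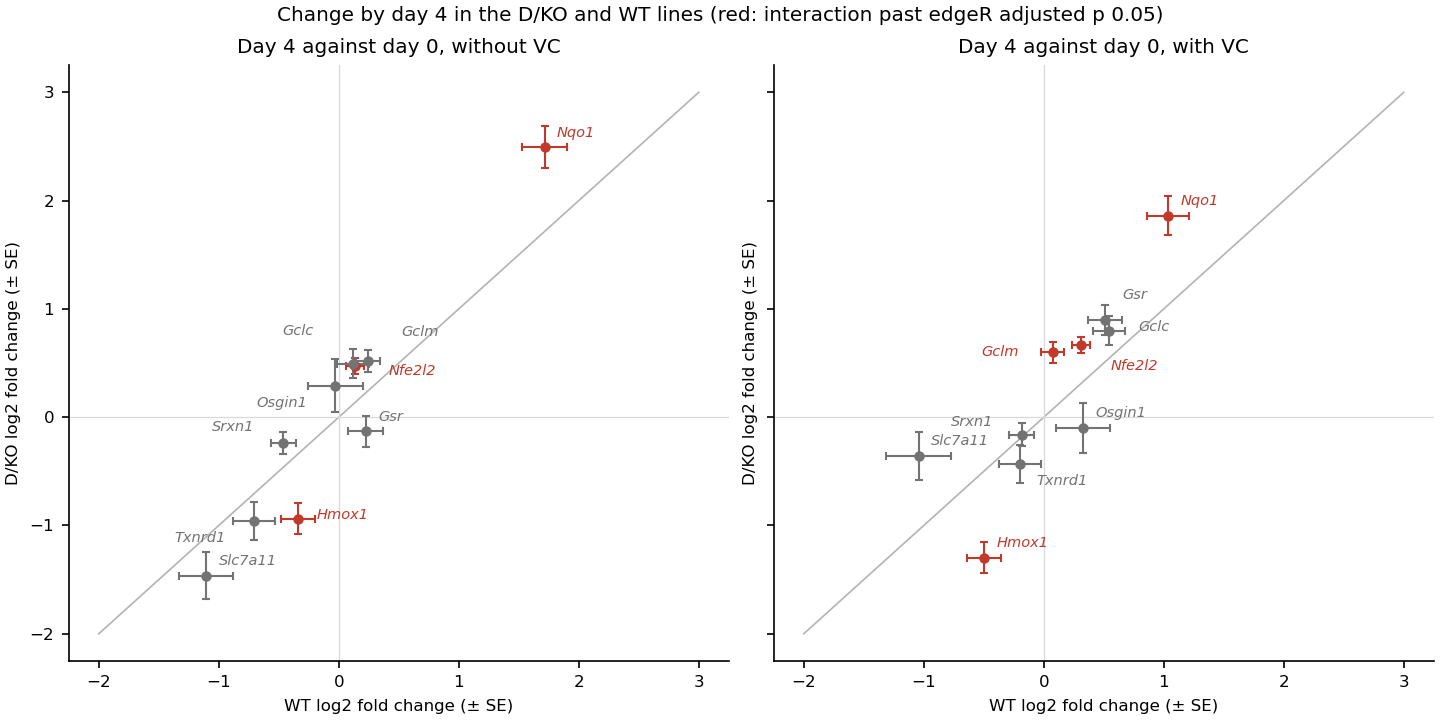
log2 fold change from day 0 to day 4 in D/KO cells (vertical, ± SE) against that in WT cells (horizontal, ± SE) for each gene, without VC (left) and with VC (right). The diagonal marks equal change, and red marks an interaction past an edgeR adjusted p of 0.05. Nqo1 lies above and Hmox1 below the diagonal in both panels.

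Summed markers of other cell types are given beside these changes without a test. The endothelial markers stood at 246 to 294 CPM at day 4, 235 to 275 CPM at day 0 with VC and 468 to 668 CPM at day 4 with VC in D/KO cells, against 0.4 to 2.0 CPM over all 18 WT libraries. The 7 macrophage markers summed to 17.7 to 19.1 CPM at day 0 in D/KO and 82.4 to 156 CPM in WT cells, to 15.7 to 16.9 and 77.5 to 127 CPM at day 0 with VC, and to 7.9 to 9.4 and 53.5 to 56.2 CPM at day 4 with VC. The 7 keratinocyte markers went in D/KO cells from 1.9 to 2.3 CPM at day 0 to 64.9 to 78.6 CPM at day 4, and from 4.7 to 9.8 CPM at day 0 with VC to 445 to 566 CPM at day 4 with VC, most of it Krt14 at 367 CPM with Krt5 at 0.50 CPM, and in WT cells from 18.5 to 24.7 CPM at day 0 to 40.6 to 45.1 CPM at day 4 and from 36.1 to 41.6 CPM to 64.4 to 85.6 CPM with VC. The 10 fibroblast markers summed in D/KO cells to 96785 to 132791 CPM at day 0 and 42862 to 44747 CPM at day 4, and with VC to 191311 to 262778 CPM at day 0 and 36829 to 38432 CPM at day 4. In WT cells they summed to 63237 to 63977 CPM at day 0, a mean of 53549 CPM at day 4, 162416 to 177866 CPM at day 0 with VC and 64387 to 76004 CPM at day 4 with VC. This sum was thus higher with VC at day 0 in both lines, as Hmox1 and Nqo1 were. Muscle markers summed in D/KO cells to 33.1 to 79.9 CPM at day 0 and 35.5 to 44.7 CPM at day 4, and with VC to 42.3 to 58.4 CPM at day 0 and 3.7 to 5.4 CPM at day 4. In WT cells they summed to 14.1 to 17.4 CPM at day 0 and 8.8 to 14.4 CPM at day 4, and with VC to 40.3 to 49.1 CPM at day 0 and 9.9 to 13.2 CPM at day 4. Markers of Schwann cells and melanocytes lay between 1.5 and 9.1 CPM in the 36 libraries. The part of these markers in the changes of the 10 genes was not tested.

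Before doxycycline, D/KO cells differed from WT cells in 6 of the 10 genes, 3 higher and 3 lower (22.1% higher, 21.1% lower, 43.2% in all). Gsr was higher in D/KO cells (0.90 ± 0.14, adjusted p = 4.14e-06), as was Slc7a11 (0.81 ± 0.21, adjusted p = 0.00238), and Nfe2l2 was lower (-0.28 ± 0.07, adjusted p = 0.00246). The weaker calls of Gclc (-0.41 ± 0.14), Srxn1 (0.30 ± 0.10) and Osgin1 (-0.77 ± 0.24) were lost without library 1 or 2 of D/KO day 0 for Gclc (-0.34 and -0.27, but -0.66 without library 3), without library 3 of D/KO day 0 or library 2 of WT day 0 for Srxn1 (0.17 and 0.29) and without library 3 of WT day 0 for Osgin1 (-0.57). Srxn1 was also not called without the last-listed D/KO libraries (0.18). The inhibitor table offered D/KO and WT cells of other mice. These did not carry the same genotype labels as the reprogramming cells and differed from them in age and, for D/KO cells, in sex. There 4 genes were higher and 3 lower in D/KO than in WT tail tip cells (17.9% higher, 16.6% lower, 34.6% in all), with Gsr again higher, at 29.9, 28.9 and 24.02 CPM against 10.8, 10.503 and 10.9 CPM (log2 1.36 ± 0.13, adjusted p = 2.54e-08), and Osgin1 again lower, at 3.75, 4.15 and 4.31 against 7.42, 7.09 and 8.03 CPM (log2 -0.89 ± 0.22, adjusted p = 0.00361). WT skin cells held 19.9 to 28.2 CPM of Gsr and 1.65 to 3.86 CPM of Osgin1. Both ranges overlapped those of the D/KO cells, so these differences were seen against WT tail tip cells only.

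Nfe2l2 was lower in D/KO cells in the reprogramming table but higher in the inhibitor table (0.42 ± 0.09, adjusted p = 5.68e-04), and Srxn1 was the reverse (-0.31 ± 0.10, adjusted p = 0.022, lost without library 2 of WT tail tip or library 1 or 2 of the D/KO control, at -0.27, -0.28 and -0.29). Txnrd1 (0.75 ± 0.13) and Hmox1 (0.43 ± 0.12) were higher and Gclm (-0.54 ± 0.08) lower in D/KO cells of the inhibitor table. The 2 tables were scaled and tested separately. Endothelial markers summed to 274 to 322 CPM in the D/KO and 29.3 to 43.2 CPM in the WT tail tip control, and their part was not tested.

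In D/KO cells of the inhibitor table, the 3 ALK5 inhibitors were compared with the same untreated libraries, so their results share that control. Their values are set side by side, since A83-01 was given at a higher dose than the other 2. Repsox raised 3 and lowered 2 of the 10 genes (1714 of all 15652 genes higher, 9.73% lower, 20.7% in all), Vactosertib raised 3 and lowered 3 (9.37% higher, 8.70% lower, 18.1% in all), and A83-01 raised 4 and lowered 3 (13.6% higher, 13.9% lower, 27.5% in all). Nqo1 stood at 7.49, 7.27 and 6.73 CPM in untreated cells, 14.9, 14.5 and 12.9 CPM with Repsox, 12.8, 15.3 and 14.4 CPM with Vactosertib and 11.5, 12.6 and 12.5 CPM with A83-01 (log2 0.98 ± 0.13, adjusted p = 1.51e-05, 0.98 ± 0.13, adjusted p = 1.83e-05, and 0.76 ± 0.13, adjusted p = 1.69e-04). Every treated library was above every untreated one.

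Osgin1 went from 3.75, 4.15 and 4.31 CPM to 6.97, 6.69 and 8.97 CPM with Repsox (log2 0.89 ± 0.22), 6.46, 7.90 and 7.83 CPM with Vactosertib (log2 0.87 ± 0.22) and 12.2, 12.1 and 12.3 CPM with A83-01 (log2 1.59 ± 0.22, adjusted p = 1.16e-05). Slc7a11 went the other way, from 12.6, 12.2 and 13.2 CPM to 6.82, 6.93 and 6.73 CPM with Repsox (log2 -0.89 ± 0.12), 9.50, 9.04 and 7.62 CPM with Vactosertib (log2 -0.54 ± 0.12) and 4.08, 5.65 and 4.95 CPM with A83-01 (log2 -1.37 ± 0.13, adjusted p = 4.24e-08). For both genes the treated and untreated ranges did not overlap. Gclc was higher, at 24.1, 18.2 and 23.8 CPM with Repsox (log2 0.72 ± 0.16, adjusted p = 0.00306) against 11.3, 16.001 and 12.8 CPM, with 0.65 ± 0.17 for Vactosertib, which was lost without library 1 of the control (0.54), and 0.47 ± 0.16 for A83-01, which kept its call only in the fit without library 2 of the control.

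Txnrd1, at 131, 141 and 141 CPM in untreated cells, was lower with each of the 3, at log2 fold changes of -0.38 ± 0.13, -0.44 ± 0.13 and -0.52 ± 0.13, adjusted p = 0.00541. The A83-01 call was kept in every fit without 1 library, while that of Repsox was lost in 6 of 6 (-0.43 to -0.27, the smallest without library 2 of Repsox) and that of Vactosertib in 5 of 6 (-0.47 to -0.42, kept only without library 1 of the control). Gsr fell with A83-01 from 29.9, 28.9 and 24.02 to 16.4, 16.5 and 15.3 CPM (-0.78 ± 0.12, adjusted p = 4.91e-05), and its call with Vactosertib (-0.37 ± 0.12) was lost in 5 of 6 fits without 1 library (-0.45 to -0.30, kept only without library 3 of the control). Nfe2l2 rose with A83-01, to 184, 179 and 187 CPM from 149, 140.2 and 139 CPM (0.36 ± 0.09, adjusted p = 0.00277).

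DMH-1 raised 2 of the 10 genes and lowered none (4.35% higher, 2.90% lower, 7.25% in all). Hmox1 rose from 241, 214 and 216 CPM to 342, 345 and 415 CPM, above every untreated library (0.72 ± 0.12, adjusted p = 4.14e-04). The ALK5 inhibitors left Hmox1 at 211 ± 25, 220.4 ± 28 and 209.8 ± 7.9 CPM, with no call. The Srxn1 call with DMH-1 (0.35 ± 0.10, adjusted p = 0.0407) was lost in all 6 fits without 1 library (0.32 to 0.40).

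**Figure D5:**
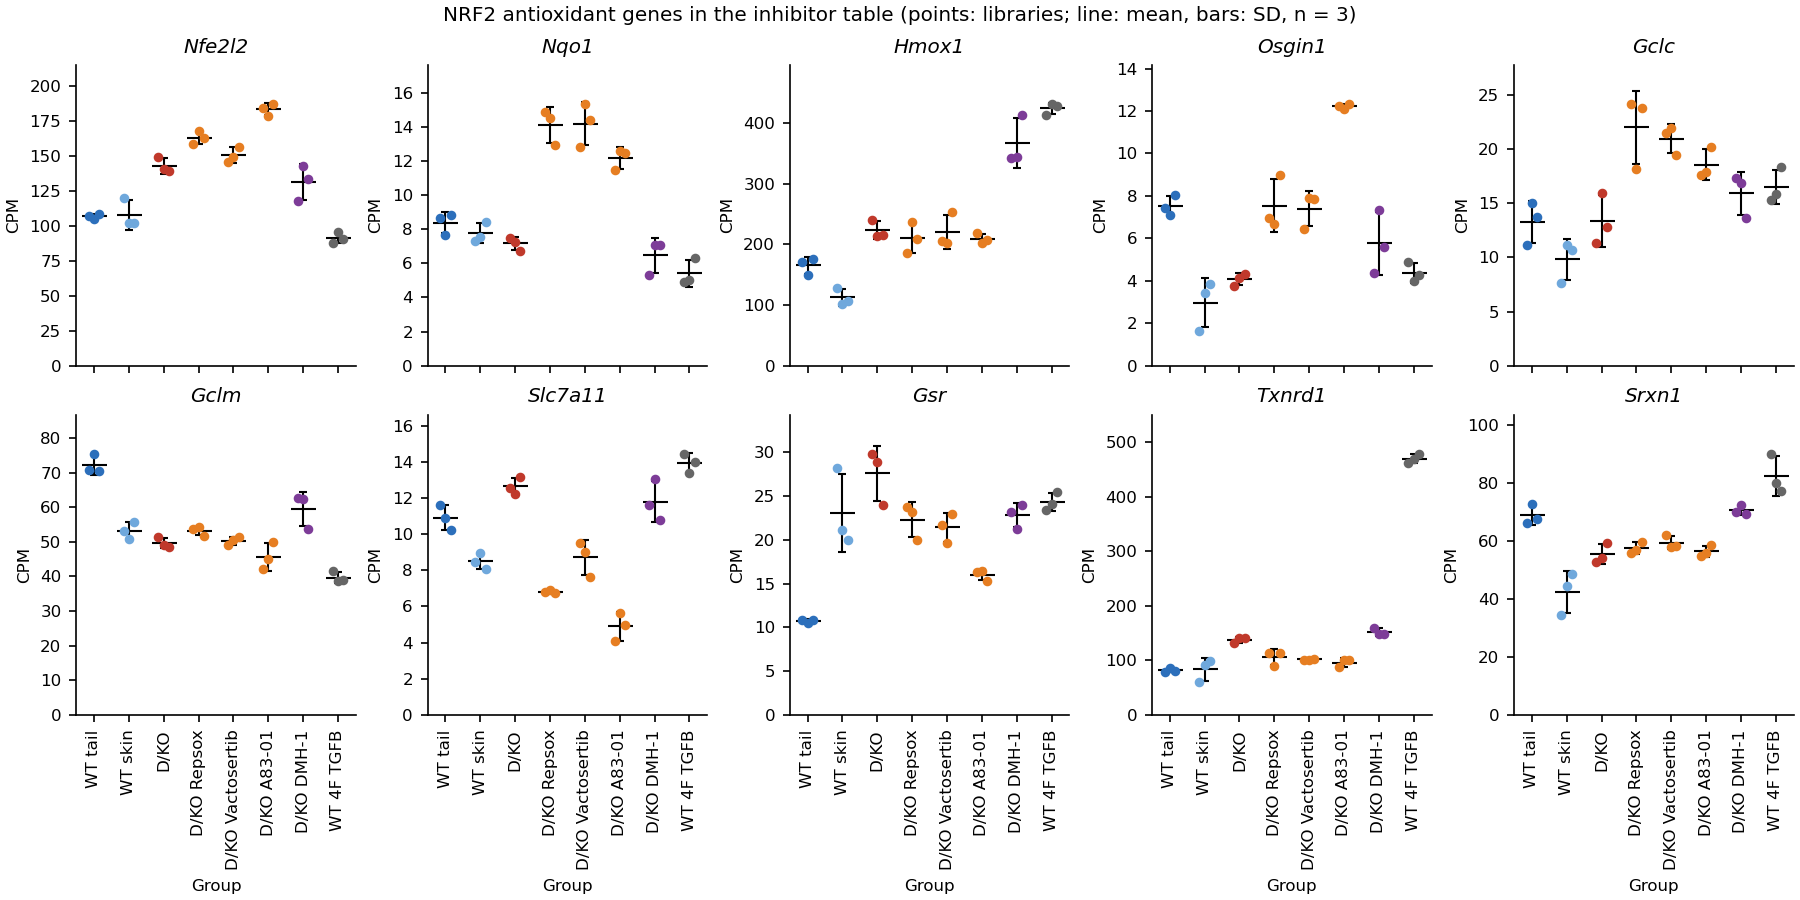
Level of each gene (CPM, linear axis from 0) in the 8 groups of the inhibitor table. Points are libraries, horizontal lines are means and bars are SD (n = 3). Nqo1 and Osgin1 are higher and Slc7a11 is lower with the 3 ALK5 inhibitors (orange), Hmox1 is higher with DMH-1 (purple), and Txnrd1 is highest in the WT 4F cells labelled TGFB (grey).

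Inhibitors were compared directly in 2 pairs. Repsox and Vactosertib shared a dose, and A83-01 and DMH-1 shared a higher one, as stated for the methylation assay whose DNA came from the samples that gave the RNA. Repsox and Vactosertib differed in none of the 10 genes by edgeR and in none of all 15652 genes (0.00%), of which 347 had an unadjusted p under 0.05, with 6 genes called by DESeq2. The difference of Repsox from Vactosertib was -0.01, 95% interval -0.28 to 0.26, for Nqo1, 0.03, 95% interval -0.42 to 0.48, for Osgin1 and -0.35, 95% interval -0.61 to -0.10, for Slc7a11 on the log2 scale. The interval for Slc7a11 lay below 0, at an unadjusted p of 0.00972, and the adjusted p was 1 by edgeR. A83-01 and DMH-1 differed in 9 of the 10 genes, 3 higher and 6 lower with A83-01 (9.67% higher, 10.8% lower, 20.5% in all). The widest were Slc7a11 (-1.27 ± 0.13, adjusted p = 1.86e-07), Osgin1 (1.08 ± 0.21, adjusted p = 8.48e-04), Nqo1 (0.91 ± 0.13, adjusted p = 3.12e-05) and Hmox1 (-0.81 ± 0.12, adjusted p = 2.68e-05). Txnrd1 (-0.66 ± 0.13), Gsr (-0.51 ± 0.12), Nfe2l2 (0.48 ± 0.09) and Gclm (-0.38 ± 0.08) also differed, and Srxn1 (-0.32 ± 0.10) lost its call in all 6 fits without 1 library.

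Among 23 other NRF2 targets tested in the inhibitor table, Repsox raised 8 and lowered 1, Vactosertib raised 8 and lowered none, A83-01 raised 8 and lowered 1 and DMH-1 raised 3 and lowered none, with medians of 0.26, 0.15, 0.27 and 0.22. Over all 15652 genes, 1714 were higher and 9.73% lower with Repsox, 9.37% and 8.70% with Vactosertib, 13.6% and 13.9% with A83-01 and 4.35% and 2.90% with DMH-1. A83-01 raised Gstm1 (1.76 ± 0.15), Ephx1, microsomal epoxide hydrolase (1.04 ± 0.10), and Mgst1 (1.40 ± 0.25), and DMH-1 raised the same 3 (0.96 ± 0.15, 0.47 ± 0.10 and 1.151 ± 0.25). Of the 12 NRF2 regulators, each of the 3 ALK5 inhibitors raised 2, the small MAF genes Maff and Mafk, and DMH-1 raised 1, Sqstm1, which encodes the autophagy receptor p62 (0.37 ± 0.10). Maff stood at 0.87 ± 0.14 and Mafk at 0.73 ± 0.12 with Repsox, at 0.72 ± 0.14 and 0.63 ± 0.12 with Vactosertib and at 1.154 ± 0.14 and 0.81 ± 0.12 with A83-01. Of the 9 ATF4 genes, Repsox lowered 3, Vactosertib 2 and A83-01 5, none rose with these, and Psat1 was at -1.154 ± 0.09 with A83-01, while DMH-1 changed none of the 9 by edgeR. Marker sums moved with the ALK5 inhibitors too. The fibroblast markers, at 88891 to 100869 CPM in untreated cells, summed to 43771 to 58376 CPM with Repsox, 57350 to 62890 CPM with Vactosertib, 47875 to 51477 CPM with A83-01 and 74955 to 93095 CPM with DMH-1. Macrophage markers went from 14.6 to 18.9 CPM in untreated cells to 24.6 to 35.8, 20.0 to 37.8, 23.1 to 33.9 and 14.9 to 18.6 CPM in the same order, and those of Schwann cells and melanocytes from 8.1 to 10.8 CPM to 18.7 to 20.6, 15.5 to 19.4, 33.2 to 40.8 and 12.8 to 16.1 CPM. Endothelial markers, at 274 to 322 CPM in untreated cells, were at 159 to 307, 231 to 305, 87.2 to 128 and 339 to 408 CPM in the same order. Muscle markers, at 28.5 to 34.9 CPM in untreated cells, were lower in every treated library, at 11.5 to 24.009 CPM. Keratinocyte markers, at 1.7 to 3.4 CPM in untreated cells, were at 4.5 to 12.1 CPM with Repsox, 4.8 to 9.8 CPM with Vactosertib, 10.9 to 12.002 CPM with A83-01 and 3.2 to 3.6 CPM with DMH-1. Their part was not tested.

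WT skin fibroblasts differed from WT tail tip fibroblasts of the same labelled sex and age in 7 of the 10 genes, 1 higher and 6 lower in skin (18.1% higher, 16.1% lower, 34.2% in all). Gsr was higher, at 28.2, 21.2 and 19.9 CPM against 10.8, 10.503 and 10.9 CPM (1.11 ± 0.13, adjusted p = 5.92e-07), and Osgin1 (-1.35 ± 0.23, adjusted p = 8.50e-05), Srxn1 (-0.70 ± 0.10), Hmox1 (-0.56 ± 0.12) and Gclm (-0.44 ± 0.08) were lower. Without library 1 of skin these were 0.94, -1.05, -0.57, -0.66 and -0.44, all still called. Gclc (-0.44 ± 0.17) was lost without that library (-0.28), without library 3 of skin or without library 2 or 3 of tail tip (-0.50, -0.34 and -0.42), and Slc7a11 (-0.36 ± 0.12) without library 1 or 2 of tail tip or library 3 of skin (-0.31, -0.36 and -0.33). With only these 2 groups in the fit, 3 of the 10 genes were called. Fewer of all genes were called in that fit too, and the 34.2% above belongs to the fit of all groups. All 5 endothelial markers were higher in skin, with a sum of 135 to 238 CPM against 29.3 to 43.2 CPM in tail tip, as were all 3 muscle markers tested, with the 5 of the list at 108 to 143 against 16.1 to 21.3 CPM. Sums of the other lists in skin and tail tip were 88088 to 180136 and 94767 to 101822 CPM for fibroblasts, 20.1 to 25.2 and 13.5 to 17.0 CPM for macrophages, 1.7 to 2.6 and 11.2 to 14.2 CPM for keratinocytes and means of 12.4 and 6.42 CPM for Schwann cells and melanocytes. The part of these markers was not tested.

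The cells labelled TGFB had no untreated group of their own genotype in the inhibitor table and were compared with no other group by a test. Their 3 libraries were part of the filter, the scaling and the estimate of spread in the fit of that table. Txnrd1 was at 462, 469 and 478 CPM there, against 60.0 to 159 CPM in the other 21 libraries of the table, and Hmox1 was at 414, 431 and 429 CPM, Srxn1 at 90.2, 79.98 and 77.3 CPM and Slc7a11 at 14.4, 13.4 and 14.0 CPM. Nfe2l2, at 87.7, 95.3 and 90.7 CPM, Nqo1, at 4.92, 5.02 and 6.33 CPM, and Gclm, at 41.5, 38.6 and 38.8 CPM, had their lowest group means of the table in these cells. In the reprogramming table, which was scaled separately, cells of the same genotype, sex and age stood at 147 ± 7.4 CPM of Txnrd1 and 240.5 ± 13 CPM of Hmox1 at day 0. The 5 muscle markers summed to 1711 to 2063 CPM in the cells labelled TGFB, of which Acta1, skeletal muscle actin, made up 1874 CPM on average, with Des at 14.7 CPM and 2 of the 5 at 0 in all 3 libraries, and the endothelial markers to 0.7 to 1.4 CPM. The keratinocyte markers summed to 131 to 135 CPM there, against 1.7 to 14.2 CPM in the other groups of the table, the fibroblast markers to 89215 to 89846 CPM, the macrophage markers to 26.3 to 29.6 CPM and those of Schwann cells and melanocytes to 1.3 to 2.7 CPM. The part of these in the levels was not tested.

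Ranked by mean level, the 12 groups of the reprogramming table spanned 11.3-fold for Slc7a11, 8.95-fold for Nqo1, 3.78-fold for Hmox1 and 3.01-fold for Osgin1, and between 1.65-fold and 2.68-fold for the other 6 genes. Most neighbours in these orders overlapped in their library ranges: of 11 neighbouring pairs, 3 were separate for Nqo1, Hmox1 and Gclm, 2 for Nfe2l2 and Srxn1, 1 for Gclc, Slc7a11 and Gsr, and none for Txnrd1 and Osgin1. D/KO day 4 with VC was the highest group for Nfe2l2, Nqo1 and Gclm, and D/KO day 0 with VC for Hmox1, Srxn1 and Txnrd1.

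Over the 12 group means of log2 CPM, which share libraries' line, day and VC, the genes nearest in pattern were found among the 15832 genes tested. Those of Nqo1 were Ephx1 (Pearson r = 0.963), Def6 (0.961) and C1qtnf1 (0.961), and those of Hmox1 were Lum (0.957), Pon3 (0.944) and Ms4a4d (0.944). Slc7a11 was nearest to Plekha3 (0.956), Ero1a (0.951) and Rnd1 (0.949), Nfe2l2 to Plcd3 (0.958), Crybg1 (0.958) and Nprl2 (0.954), and Gclm to Rflnb (0.970), Stk38l (0.966) and Pbx3 (0.961). Gclc was nearest to P2rx7 (0.959), Slc2a3 (0.952) and 4930599N23Rik (0.947), Gsr to Rpl13 (0.950), Tyw1 (0.943) and Gm4366 (0.942), and Osgin1 to Itfg2 (0.963), Mcoln1 (0.963) and Renbp (0.941). Txnrd1 was nearest to Galc (0.922), Ttc12 (0.914) and Leo1 (0.894), and Srxn1 to Atp5mj (0.922), Rpl41 (0.908) and Snrpg (0.900). Among the 10 genes, the most alike pair was Nqo1 and Gclm (r = 0.767) and the most opposed was Slc7a11 and Osgin1 (r = -0.82).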

How the data were processed

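RNA was sequenced from 60 libraries of mouse fibroblasts in 20 groups of 3. Per the methods and the submitters' processing notes, the authors checked paired-end 150 bp reads with FastQC, trimmed them with Trim Galore, aligned them to GRCm39 with HISAT2 and counted them per gene with featureCounts of Subread. The deposited tables hold unnormalised read counts for each gene, and every column was matched to a sample by its label (0 columns were left unmatched). Versions, the annotation release, strandedness and the treatment of multi-mapping reads are not given in the sources used here, so reads from a gene and its antisense partner cannot be told apart.

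The 10 genes and all other lists were chosen with earlier results of these data known. Symbols came from GENCODE M39, which held 56236 of the 56980 identifiers (98.7%). In R 4.3.3, edgeR 4.0.16 kept 15832 and 15652 genes (filterByExpr, minimum count 10, minimum total 15), scaled them by TMM (factors 0.773 to 1.10 and 0.846 to 1.12) and tested contrasts by its quasi-likelihood test (two-sided), one model for each table, with Benjamini-Hochberg adjustment within a contrast. The design used edgeR although the authors tested with DESeq2, which was run as an alternative (1.42.0). Log2 CPM used a prior count of 2 and RPKM the deposited exon lengths. Biological coefficients of variation (common dispersion) were 0.132 and 0.195. No scaling moved the median log2 fold change of all genes by over 0.1 in any of the 27 contrasts. The rule on names was all 10 members in every comparison, which was kept for the counts, while members that were not called are named in some comparisons only. It added up to 4 genes with the smallest p of each list, and the 3 genes nearest in pattern to each member, and a gene so named may be given again in a matching comparison. Genes chosen outside this rule, after their values were seen, are the markers Krt14, Krt5, Acta1 and Des. The fitting code was tested on simulated data.

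The alternatives were DESeq2, its size factors within edgeR, dropping the filter or asking for 10 counts in every library, only the groups compared, 18 libraries of the inhibitor table, day 0 without VC as baseline, subtraction of the median, each library left out in turn, and, chosen after seeing the data, the last-listed library of every D/KO group left out. Libraries are numbered in the order of their accession, which is only a name.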

Additional observations from a re-analysis of the deposited data

Results flagged for a closer look

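The change from day 0 differed between the D/KO and WT lines, by the test of the interaction, in 9 cases. For Hmox1 it was -0.76 at day 2, -0.60 at day 4, -1.08 at day 2 with VC and -0.80 at day 4 with VC on the log2 scale. For Nqo1 it was 0.78 at day 4 and 0.82 at day 4 with VC, for Nfe2l2 0.33 and 0.36 at the same days, and for Gclm 0.53 at day 4 with VC. Of these, the day 4 interactions without VC were lost in 10 of 12 fits that left out 1 library for Nqo1 and for Hmox1 and in 6 of 12 for Nfe2l2, that of Nqo1 at day 4 with VC was lost in 1, and with day 0 without VC as baseline Hmox1 (-0.45) and Nqo1 (0.62) at day 4 with VC were not called. The lines differ in genotype, sex, age, reporter and the source of the cassette, which cannot be told apart here.

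In the cells labelled TGFB, which no test compared with another group, 4 genes were above all 9 control libraries of the inhibitor table in each of 3 libraries: Txnrd1 at a mean of 469.8 CPM, Hmox1 at 425 CPM, Srxn1 at 82.5 CPM and Slc7a11 at 13.9 CPM. These cells had no control of their own genotype there, so the differences were not tested.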

How the results depend on the processing

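Of 139 called changes of the 10 genes, 137 kept their call under DESeq2, 136 with its size factors within edgeR, 137 with at least 10 counts in every library, 116 with no filter, 119 with only the groups compared and 101 whichever library was left out. None turned its direction in these. With day 0 without VC as baseline, 22 of 32 kept their call, 9 lost it and 1 turned, Hmox1 in WT cells at day 4 with VC (0.13). With the last-listed D/KO libraries left out, 91 of 96 were kept. 36 of 36 were kept in 18 libraries of the inhibitor table. Subtracting the median leaves the calls as they were by construction.

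The number of the 10 genes called changed by over 1.5 times with only the groups compared for WT day 4 (7, from 4), WT day 2 with VC (3, from 5) and skin against tail tip (3, from 7). It did so with no filter for VC in WT cells at day 0 (3, from 5), Vactosertib (3, from 6) and DMH-1 (1, from 2), and with day 0 without VC as baseline for the interaction at day 2 with VC (4, from 1). The number of all genes called changed likewise with only the groups compared, for WT day 4 (6400, from 3880), VC in D/KO cells at day 0 (2523, from 4140), Vactosertib (4317, from 2828), DMH-1 (1910, from 1135) and skin (2591, from 5348), and for Repsox against Vactosertib under DESeq2 (6, from 0). The cause was not tested.

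Leaving out 1 library, the number of the 10 genes called ran from 3 to 5 for WT day 2 with VC against day 0 with VC and for VC in WT cells at day 0 and at day 2, from 0 to 3 for the interaction at day 4 and from 1 to 2 for DMH-1. The number of all genes called ran from 1067 to 2056 for WT day 2, from 619 to 885 for DMH-1. Repsox against Vactosertib turned its sign, without a call, for Nqo1 (-0.079 to 0.049) and Osgin1 (-0.12 to 0.10). Replicate libraries differed by 3.27 to 407 times the variance that counting alone gives, and 3 libraries a group limit the precision. No paired analysis was possible because the labels give the libraries running numbers and no replicate numbers shared between groups.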
